A study of Mus musculus with 6 samples.

Results

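The Slc25 genes encode the mitochondrial solute carriers, and this account covers every mouse gene whose symbol starts with Slc25a together with *Ucp2* and *Ucp3*. *Ucp1*, the thermogenic uncoupling protein, belongs to the same protein family but was not counted as a member. The rule found 50 genes in the RefSeq annotation of GRCm38.p6, which are 49 protein-coding genes and the pseudogene *Slc25a5-ps*, against 23462 genes matched by the arrays. Of the 50 members, 49 had at least 1 of 83 probes, and the pseudogene had none.

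RNA came from brown adipose tissue (BAT) of 3 wildtype (WT) and 3 miR-22 knockout (KO) male mice, 8 weeks old, with 1 mouse per Agilent array and 1 dye. The KO mice lack the microRNA miR-22 in the whole body (a line of the Jackson Laboratory), so no value here separates an effect within brown fat cells from one arising elsewhere. The arrays did not measure miR-22. The study compared the groups to ask which genes of BAT change when miR-22 is missing. In bulk tissue, fewer cells of a type and less RNA per cell cannot be told apart.

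Mitochondrial carriers sit in the inner membrane and exchange metabolites, nucleotides, cofactors and ions between the matrix and the cytosol. Most work as exchangers, and a branch that includes the uncoupling proteins can pass protons or small anions. Brown fat relies on them for the import of fatty acids as acylcarnitines, for the exchange of ADP and ATP, and for the export of citrate from which new fatty acids are made.

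The deleted microRNA is shown because it defines the KO group. Both mature arms come from RefSeq on GRCm38.p6, written 5′ to 3′ with the seed, bases 2 to 8, in capitals. The hairpin lies on chromosome 11, and the arms do not share a seed.
mmu-miR-22-5p: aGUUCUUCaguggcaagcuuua
mmu-miR-22-3p: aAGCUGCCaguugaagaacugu
Members on the same chromosome include *Slc25a35*, *Slc25a11*, *Slc25a39* and *Slc25a10*, and the nearest, *Slc25a11*, lies 4.82 Mb from the hairpin. None of these 4 passed the test, and their log2 differences, KO minus WT, were -0.14, -0.12, -0.32 and 0.04 in that order.

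The values below are log2 signals, where 0 is the 75th percentile of the same array, so a difference of 1 is a 2-fold change. The groups were compared with limma, fitted over 14711 genes, and a gene is said to have risen or fallen in KO mice when its unadjusted p was under 0.05, the threshold of the study's methods. The adjusted p is that of Benjamini-Hochberg over all genes tested. Between 55.8% and 66.5% of the spots were well above background on each array. The scanner software marked 4.87 to 17.1% of spots as outliers, with the most on the arrays of WT mouse 3 (17.1%) and KO mouse 1 (15.1%), and marked spots were left out unless stated. BAT was identified by its markers on every array, with a mean log2 signal of the 9 brown adipocyte genes between 2.69 and 3.53. The mean of 20 skeletal muscle genes ran from -4.27 in WT mouse 3 to 3.42 in KO mouse 2.

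Of the members, 41 could be tested. Another 4, *Slc25a4*, *Slc25a5*, *Slc25a16* and *Slc25a51*, were well above background but had too many marked spots. *Slc25a18*, *Slc25a21*, *Slc25a53* and *Slc25a54* were not well above background on any of the 6 arrays. In KO mice 7 of the 41 rose, against 10% of all genes tested, and 5 fell, against 8.82% of all genes. As shares of the tested members these are 17.1% and 12.2%. No member passed the adjusted threshold, against 0.143% of all genes higher and 0.0408% lower. The smallest adjusted p of a member was 0.060 with limma, and 4 members had one under 0.1. The adjusted threshold was passed by *Ucp2*, *Ucp3* and *Slc25a30* with limma's trend and robust options (adjusted p = 0.013, 0.021 and 0.036), by *Ucp2*, *Slc25a13* and *Slc25a30* when only genes above background on all 6 arrays were tested (0.029, 0.036 and 0.048), and by *Ucp2* with normexp background correction (0.047). In these fits more genes were called in all, with 1.09%, 1.21% and 0.197% of all genes higher at the adjusted threshold. By the array positions that the scanner files carry, which no label states, the slide held WT mice 1 and 2 in row 1 and all other mice in row 2. With the row as a block, each difference is the KO mean minus WT mouse 3, the only WT mouse in row 2. That fit thus rests on 1 WT array, the one with the most marked spots, so its calls are not counted here. The median difference of the 32 members that it could fit was -0.007, beside 0.01 over all genes. In the main fit the median difference of the members was -0.12, beside -0.03 over all genes. Among the 31 members with 6 values, 8 had all KO mice above all WT mice and 9 had all KO mice below, beside 14.2% and 14.7% of all such genes.

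The 7 carriers that rose were *Slc25a30*, *Ucp2*, *Ucp3*, *Slc25a13*, *Slc25a43*, *Slc25a48* and *Slc25a24*. The 5 that fell were *Slc25a1*, *Slc25a2*, *Slc25a26*, *Slc25a46* and *Slc25a17*. In each of the 12 the WT and KO mice did not overlap. The 12 were picked on these same values, so the lack of overlap adds no support.

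**Figure D1:**
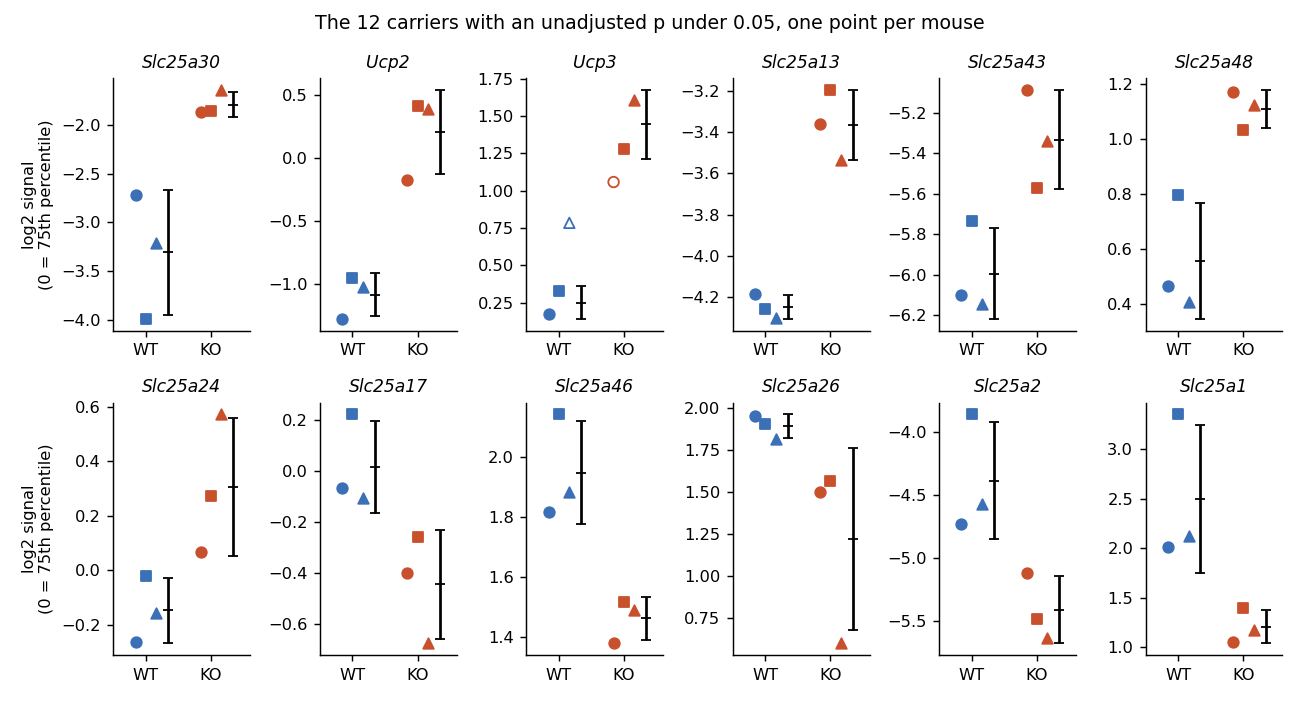
Log2 signal (0 is the 75th percentile of the array) of the 12 carriers that rose or fell, with 1 point per mouse (circle, square and triangle are mice 1, 2 and 3), the mean and the SD as a black bar, and an axis of its own in each panel. Open symbols are marked spots, left out of the mean and the bar. WT (blue) and KO (red) mice do not overlap in any panel, and the carriers were picked on these same values.

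The uncoupling protein branch holds *Ucp2*, *Ucp3*, *Slc25a14*, *Slc25a27* and *Slc25a30*, all of them tested. Of these 5, 3 rose and none fell, against 10% and 8.82% of all genes. The median difference was 1.19, the highest among the groups of carriers, beside -0.03 over all genes. The same shares of all genes apply to the counts of the other groups of carriers below. The mean of the 5 white adipocyte markers, all of them detected, was also higher in the KO mice, at -1.96, -1.42 and -1.10, than in the WT mice, at -1.97, -2.04 and -2.27, and its part in the rise of these carriers was not tested. *Ucp2*, an uncoupling protein relative found in many tissues that is known to carry acids such as malate and aspartate out of the matrix, read -1.28, -0.95 and -1.03 in WT mice and -0.18, 0.41 and 0.38 in KO mice. All KO mice stood above all WT mice. The difference was 1.29 ± 0.20 (SE, n = 3 against 3), a 2.44-fold rise with a 95% interval of 0.81 to 1.77 and an adjusted p of 0.060 with limma. A second probe of *Ucp2* gave a difference of 1.73.

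*Slc25a30*, also called kidney mitochondrial carrier protein, was dim, with signals of -2.72, -3.99 and -3.21 in WT mice and -1.87, -1.86 and -1.64 in KO mice. The 3 KO mice lay close together, and the WT mice were spread over more than 1 log2 unit. The difference was 1.51 ± 0.31, the largest rise of any carrier tested, at 2.85-fold (adjusted p = 0.087 with limma). A dimmer second probe gave 0.97.

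*Ucp3* is the uncoupling protein best known from skeletal muscle and brown fat, where it follows the supply of fatty acids. Its signals were 0.17 and 0.33 in WT mice 1 and 2 and 1.28 and 1.61 in KO mice 2 and 3. The spots of WT mouse 3 and KO mouse 1 were marked, which left 2 values in each group. The difference was 1.19 ± 0.21, with an adjusted p of 0.094 with limma. With the marked spots kept, these 2 mice read 0.79 and 1.06, the groups still did not overlap, and the difference was 0.89. *Ucp3* has a single probe, so no second reading exists. Of the WT mice, mouse 3 had the lowest mean of the muscle genes, -4.27, and the highest *Ucp3* signal. Of the KO mice, mouse 1 had the lowest muscle mean, -0.00, and the lowest *Ucp3* signal. Both of these *Ucp3* spots were marked, so a fit with the muscle mean as a covariate, which gave 1.27, holds neither mouse, and the part of muscle RNA in the *Ucp3* difference was not tested.

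The remaining genes of the branch did not pass the test. *Slc25a14*, a carrier best known from brain, differed by 0.36 (95% interval -0.01 to 0.73), and read -1.001, -0.94 and -0.68 in WT mice and -0.45, -0.69 and -0.40 in KO mice, with an overlap at KO mouse 2 alone. *Slc25a27*, also known from brain, differed by -0.13 (interval -0.63 to 0.37). *Ucp1*, the family's brown fat uncoupler, was among the brightest genes on the arrays but had too many marked spots to be tested. With them kept it read 5.51, 5.85 and 5.53 in WT mice and 5.10, 4.999 and 5.65 in KO mice, so that the groups overlapped at KO mouse 3.

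*Ucp3* and *Ucp2* are neighbours on chromosome 7, 6.91 kb apart, and both rose. The other pairs of members within 100 kb of each other, such as *Slc25a43* and *Slc25a5* on chromosome X, hold at most 1 gene that rose or fell. The promoters of the 3 genes of the uncoupling protein branch that rose, and of the citrate carrier gene *Slc25a1*, which fell the most, are shown because these genes carry the largest changes in the family. They were chosen after their values were seen. The sequences come from RefSeq (GRCm38.p6), run 5′ to 3′ along the gene from 250 bases before the start to 50 after, and the capitals mark GC boxes (GGGCGG) and CCAAT boxes (CCAAT) found on either strand.
Ucp2, chr7:100493108-100493407, plus strand: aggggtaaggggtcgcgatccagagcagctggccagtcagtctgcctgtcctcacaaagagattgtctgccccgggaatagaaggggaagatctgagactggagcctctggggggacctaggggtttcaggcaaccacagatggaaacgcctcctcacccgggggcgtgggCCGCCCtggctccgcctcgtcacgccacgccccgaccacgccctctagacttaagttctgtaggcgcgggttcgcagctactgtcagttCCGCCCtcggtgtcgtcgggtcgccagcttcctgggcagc
Ucp3, chr7:100472741-100473040, plus strand: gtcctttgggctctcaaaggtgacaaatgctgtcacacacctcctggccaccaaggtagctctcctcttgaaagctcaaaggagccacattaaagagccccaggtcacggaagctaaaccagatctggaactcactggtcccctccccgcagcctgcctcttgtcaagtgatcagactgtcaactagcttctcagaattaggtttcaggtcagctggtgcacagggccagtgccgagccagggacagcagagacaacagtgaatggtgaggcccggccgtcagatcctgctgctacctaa
Slc25a30, chr14:75786988-75787287, minus strand: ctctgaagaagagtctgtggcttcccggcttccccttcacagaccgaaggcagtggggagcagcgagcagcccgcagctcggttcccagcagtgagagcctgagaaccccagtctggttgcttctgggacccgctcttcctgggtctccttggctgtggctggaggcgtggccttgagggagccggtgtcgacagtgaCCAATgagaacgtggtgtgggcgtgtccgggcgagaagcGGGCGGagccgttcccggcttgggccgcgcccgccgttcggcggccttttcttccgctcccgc
Slc25a1, chr16:17928170-17928469, minus strand: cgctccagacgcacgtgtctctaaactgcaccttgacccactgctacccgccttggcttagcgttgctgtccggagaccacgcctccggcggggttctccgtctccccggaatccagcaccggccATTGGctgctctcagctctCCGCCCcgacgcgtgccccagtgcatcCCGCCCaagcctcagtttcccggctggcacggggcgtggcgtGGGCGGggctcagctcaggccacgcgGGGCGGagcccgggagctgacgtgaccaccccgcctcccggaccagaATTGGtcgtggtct
The *Ucp3* window held none of the 4 motifs searched, whereas that of *Ucp2* held 2 GC boxes, that of *Slc25a30* held 1 GC box and 1 CCAAT box, and that of *Slc25a1* held 4 and 2. The other motifs were the ERR site (TCAAGGTCA) and the cAMP response element (TGACGTCA), read on both strands, and neither lay in these 4 windows. Promoters were at hand for 38 members, with 48 windows in all. A GC box lay in 81.2% of these windows, beside 35.7% of 32851 windows of all genes and 46.2% of those of protein-coding genes. A CCAAT box lay in 45.8%, beside 37.4% of all windows. The cAMP response element was in 2 of the members' windows (4.17%), beside 1.79% of all windows and 2.23% of those of protein-coding genes. The ERR letters were in none of the members' windows, beside 0.423% of all.

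Among the carriers of di- and tricarboxylates, 1 of the 3 tested fell and none rose. *Slc25a1* exports citrate from the matrix, which supplies acetyl groups for fatty acid and cholesterol synthesis. Its signals were 2.01, 3.36 and 2.12 in WT mice and 1.06, 1.39 and 1.18 in KO mice. All KO mice were lower, and WT mouse 2 stood well above the other two WT mice. The difference was -1.29 ± 0.36, a 2.44-fold drop with an interval of -2.13 to -0.44 and an adjusted p of 0.14 with limma. Without WT mouse 2 it was -0.86, and without WT mouse 1 it was -1.53. The second probe of *Slc25a1* gave -0.94, with WT mice at 1.49, 2.02 and 1.81 and KO mice at 0.73, 1.18 and 0.58. On that probe WT mouse 2 stood closer to its group. With the slide row as a block, where WT mouse 3 alone stands for the WT mice, the difference of the first probe was -0.92.

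The other members of that group did not pass. *Slc25a11*, the oxoglutarate carrier of the malate-aspartate shuttle, read 3.90 and 4.20 in WT mice 1 and 2 and 3.71 and 4.15 in KO mice 2 and 3, and the groups overlapped. Its difference was -0.12 (interval -0.74 to 0.50). *Slc25a10*, the dicarboxylate carrier known from white fat and liver, was dim and varied from -4.91 to -3.18 among the KO mice, around a difference of 0.04. *Slc25a21*, the oxodicarboxylate carrier, was not well above background.

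The carriers of amino acids and glutathione had 10 tested members, of which 1 rose, 1 fell, and the median was -0.18. *Slc25a13*, or citrin, the aspartate-glutamate carrier that feeds the malate-aspartate shuttle in liver, read -4.19, -4.26 and -4.30 in WT mice and -3.36, -3.20 and -3.54 in KO mice. Both groups were tight, and the gap between them was wider than the range of either. The difference was 0.89 ± 0.14, with an adjusted p of 0.062 with limma, on a dim probe. Its paralog *Slc25a12*, the isoform of muscle and brain, did not pass, with a difference of 0.55 and an interval of -0.91 to 2.01.

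*Slc25a12* had the same lowest and highest mouse as the skeletal muscle genes. Its signals were -0.88, -1.47 and -2.19 in WT mice and -1.84, 0.42 and -1.47 in KO mice, while the muscle mean read 2.38, 1.59 and -4.27 in WT mice and -0.00, 3.42 and 1.45 in KO mice. WT mouse 3 was lowest and KO mouse 2 highest in both. Without KO mouse 2 the difference of *Slc25a12* was -0.14. A second probe of the gene had the same lowest and highest mouse. The remaining, dim probe also had KO mouse 2 highest (-4.45), but WT mouse 2 lowest (-8.30) and WT mouse 3 highest of the WT mice (-5.64). *Slc25a4*, the adenine nucleotide carrier typical of heart and muscle, did not share that order: it read 4.80, 5.23 and 4.96 in WT mice and 4.50, 4.63 and 5.03 in KO mice.

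**Figure D2:**
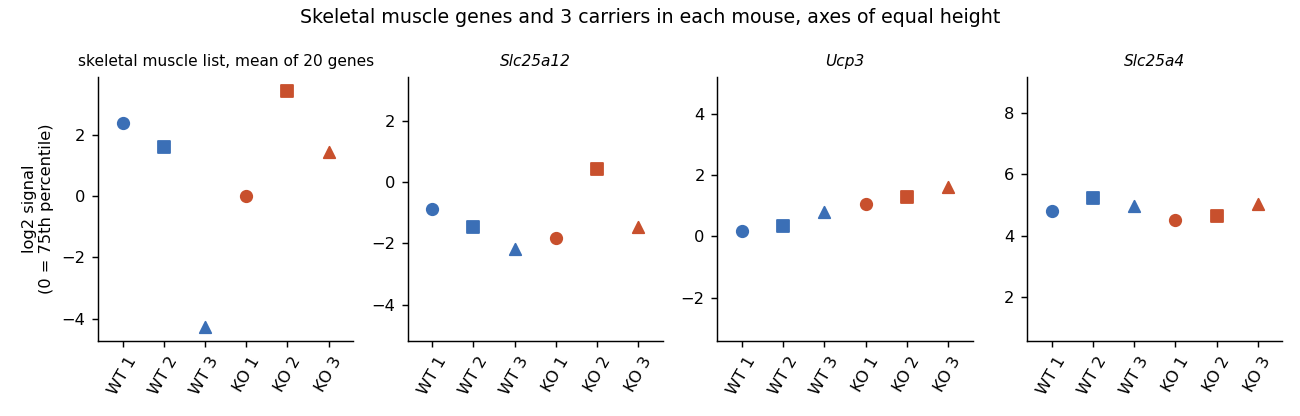
Log2 signal in each mouse (marked spots kept, 0 is the 75th percentile of the array) of the mean of 20 skeletal muscle genes and of *Slc25a12*, *Ucp3* and *Slc25a4*, on axes of equal height. The muscle mean spans -4.27 to 3.42, *Slc25a12* has the same lowest (WT mouse 3) and highest (KO mouse 2) mouse, and *Ucp3* and *Slc25a4* do not.

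*Slc25a2*, an ornithine carrier, read -4.73, -3.86 and -4.58 in WT mice and -5.12, -5.49 and -5.64 in KO mice, where 2 of 3 arrays were above background. The KO mice were all lower, by -1.03 ± 0.26 (adjusted p = 0.13 with limma). *Slc25a44*, the carrier of branched-chain amino acids that brown fat burns for heat, differed by 0.19 on the probe that could be tested, with WT signals of -2.54, -2.69 and -2.57 and KO signals of -2.49, -2.59 and -2.15. Its brighter probe had marked spots, and with these kept it read 2.02, 2.43 and 2.16 in WT mice and 1.83, 1.87 and 2.47 in KO mice, a difference of -0.15. The 2 probes thus differed in sign, and neither passed. *Slc25a29*, a carrier of basic amino acids, differed by -0.43 with all KO mice lower, and did not pass (interval -0.88 to 0.03). It passed in 4 of 20 alternatives, among them quantile normalization, at -0.54. The carriers linked to glutathione, *Slc25a39* and *Slc25a40*, differed by -0.32 and -0.21, and *Slc25a38*, the glycine carrier of heme synthesis, by -0.25, in each case with all KO mice below all WT mice and an interval that reached 0. On 2 dim probes *Slc25a40* differed by 1.12 and 0.49, opposite to its brightest probe.

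Of the 7 tested carriers of adenine nucleotides and phosphate, 1 rose and 1 fell. *Slc25a24*, which exchanges ATP-Mg for phosphate, rose by 0.45 ± 0.17, from -0.26, -0.02 and -0.16 in WT mice to 0.07, 0.27 and 0.57 in KO mice (adjusted p = 0.23 with limma). The highest WT mouse and the lowest KO mouse were less than 0.1 apart, and the call was lost in 8 of 20 alternatives, among them SAM and the muscle mean as a covariate. *Slc25a17*, which carries coenzyme A and other nucleotide cofactors into peroxisomes and not mitochondria, fell by 0.46, from -0.07, 0.22 and -0.11 to -0.40, -0.26 and -0.68 (adjusted p = 0.22 with limma), and lost its call in 7 of 20 alternatives, SAM among them. *Slc25a25*, another ATP-Mg and phosphate carrier, read 0.60, 0.82 and 0.37 in WT mice and 0.82, 0.57 and 0.64 in KO mice, with a difference of 0.08 (interval -0.31 to 0.47).

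*Slc25a3* brings phosphate into the matrix for ATP synthesis. It read 3.68 and 3.91 in WT mice 1 and 2 and 3.29 and 3.63 in KO mice 2 and 3, a difference of -0.34 that did not pass (interval -0.90 to 0.22). With the marked spots kept, which gave 3 values a group, it was -0.41 and passed the unadjusted threshold, whereas with quantile normalization as well it was -0.18 and did not. *Slc25a4* and *Slc25a5* are the adenine nucleotide carriers that exchange ADP for ATP. With the marked spots kept, *Slc25a5* read 4.69, 4.55 and 4.65 in WT mice and 4.31, 4.19 and 4.59 in KO mice. The differences of *Slc25a4* and *Slc25a5* were then -0.28 (interval -0.73 to 0.18) and -0.27 (interval -0.63 to 0.09). *Slc25a31*, the isoform of the testis, was near background and varied most. It read -6.01, -5.06 and -6.06 in WT mice and -4.59, -7.11 and -3.87 in KO mice. *Slc25a41* was similarly dim, with 0.65 between the groups and an interval of -0.16 to 1.46. It read -4.98, -5.78 and -5.37 in WT mice and -5.11, -5.05 and -4.02 in KO mice.

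*Slc25a20* carries acylcarnitines into the matrix for fatty acid oxidation. It read 3.89 and 3.68 in WT mice 1 and 2 and 3.39 and 3.89 in KO mice 2 and 3, and the groups overlapped. The difference was -0.15, with an interval of -0.78 to 0.48.

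Of the 6 carriers of nucleotides and cofactors tested, 1 fell and none rose. *Slc25a26* imports S-adenosylmethionine, the methyl donor. Its brightest probe read 1.95, 1.90 and 1.81 in WT mice and 1.50, 1.56 and 0.60 in KO mice, where KO mouse 3 lay far below the other two. The difference was -0.67 ± 0.27 (adjusted p = 0.25 with limma). The other 2 probes gave -0.13 and 0.07, and the call of *Slc25a26* was lost in 12 of 20 alternatives, among them the mean of its probes, quantile normalization and the authors' processed values. *Slc25a42*, the coenzyme A carrier, read 3.32 and 3.43 in WT mice 1 and 2 and 3.16 and 3.26 in KO mice 2 and 3. Its difference was -0.17. *Slc25a33* and *Slc25a36*, carriers of pyrimidine nucleotides, differed by 0.03 and -0.18, and *Slc25a32*, the folate and FAD carrier, by 0.29. With the marked spot of WT mouse 3 kept, that probe of *Slc25a32* gave 0.17. Another probe of *Slc25a32* without marked spots was about as bright, at -0.09, 0.07 and -0.12 in WT mice. It gave -0.33, the opposite sign, and a dim probe gave 0.38. *Slc25a51*, the NAD+ carrier, read 3.86, 4.20 and 3.89 in WT mice and 3.61, 3.46 and 3.88 in KO mice with the marked spots kept, a difference of -0.33 that did not pass. On the same terms *Slc25a16* differed by -0.06.

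The mitoferrins are the iron importers. *Slc25a37* differed by 0.23 (interval -0.06 to 0.53) and *Slc25a28* by -0.15, and neither passed. *Slc25a37* passed the unadjusted threshold in 5 of 20 alternatives, among them quantile normalization and the methods' t-test, and its dimmer probe gave 0.61.

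Among 7 tested members with other or unassigned substrates, 2 rose and 1 fell. *Slc25a48*, which has been linked to choline import, read 0.46, 0.80 and 0.41 in WT mice and 1.17, 1.03 and 1.12 in KO mice, a rise of 0.55 ± 0.15 (adjusted p = 0.14 with limma). *Slc25a43* was the dimmest carrier tested, above background on 2 of 3 arrays in each group, with -6.10, -5.74 and -6.15 in WT mice and -5.09, -5.57 and -5.34 in KO mice. Its difference of 0.66 vanished with normexp background correction (-0.0024). *Slc25a46*, a protein of the outer membrane that takes part in mitochondrial fusion and cristae shape, read 1.82, 2.14 and 1.88 in WT mice and 1.38, 1.52 and 1.49 in KO mice. It fell by 0.49 ± 0.14 (adjusted p = 0.16 with limma), and its dimmer second probe gave 0.23. The rest, *Slc25a34*, *Slc25a35*, *Slc25a45* and *Slc25a47*, differed by -0.14, -0.14, 0.34 and 0.01.

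**Figure D3:**
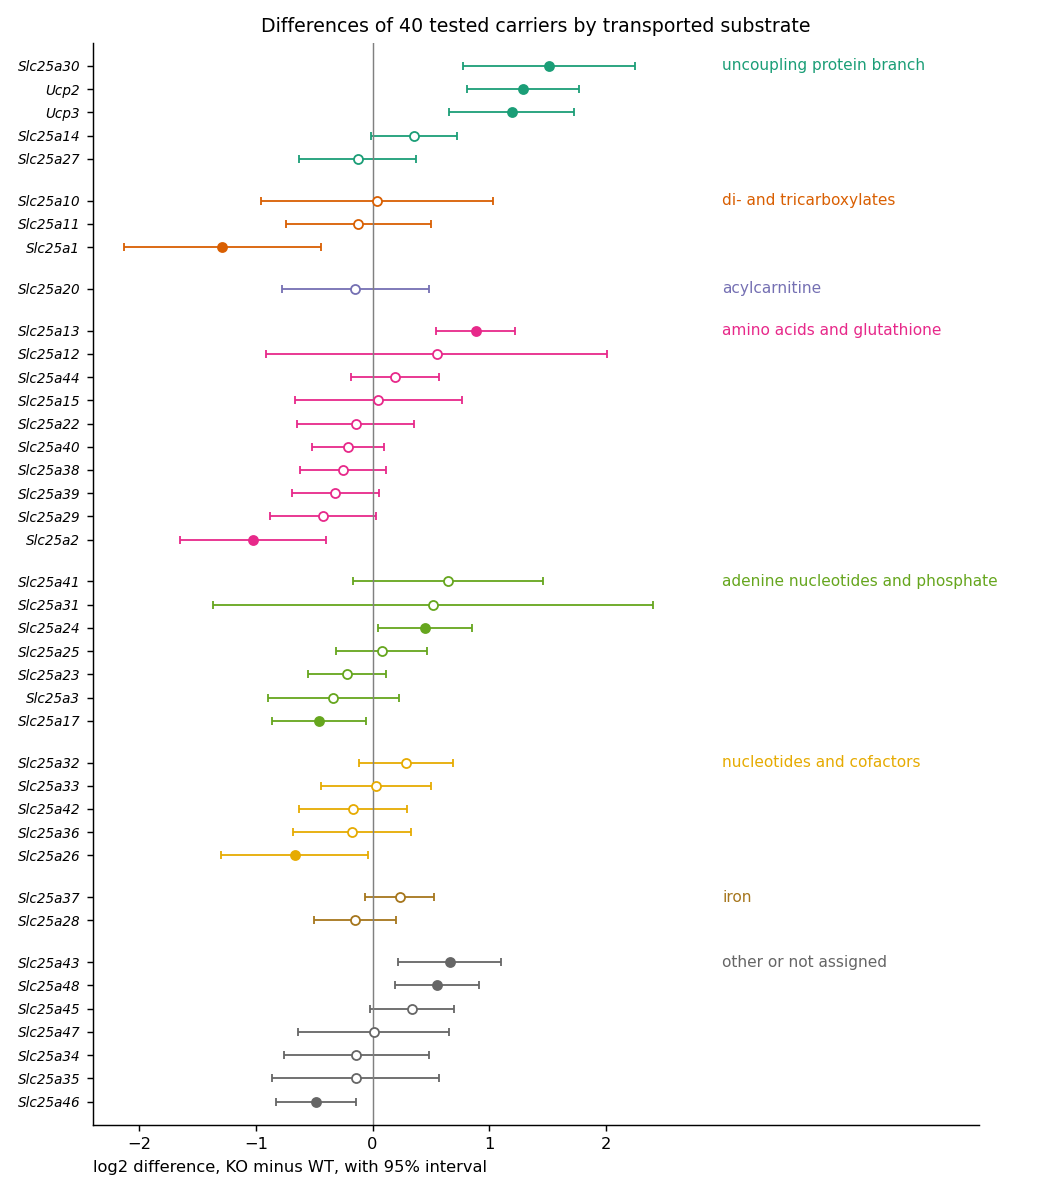
Log2 difference, KO minus WT, of 40 of the 41 tested carriers with its 95% interval from limma, grouped by transported substrate. Filled points have an unadjusted p under 0.05. The 3 points furthest to the right, *Slc25a30*, *Ucp2* and *Ucp3* (1.51, 1.29 and 1.19), all belong to the uncoupling protein branch, and *Slc25a1* (-1.29) lies furthest to the left.

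Of the 29 tested members that did not pass, 26 differed by less than 0.5 in either direction, and 25 had a 95% interval that lay between -1 and 1. For these a 2-fold change in either direction lay outside the interval of the probe that stood for the gene. Other probes can differ, as in *Slc25a40*, which is among the 25 and differed by 1.12 on a dim probe. With marked spots kept, 7 of the 21 members with several detected probes had probes of both signs.

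The order of the carriers by signal was read with marked spots kept, which gave 45 carriers a value on every array. A probe's brightness depends on its own sequence as well as on the amount of its transcript, so this is an order of probe signals and not of transcript amounts. Its own spread can be seen in the genes with several detected probes, whose brightest and dimmest probes differed by a median of 2.41 log2 units and by up to 6.16 in *Slc25a40*. *Slc25a4* was brightest in WT mice at 4.995 ± 0.22 (SD, n = 3), brighter than 99.1% of all genes, followed by *Slc25a5* at 4.63 ± 0.07 and *Slc25a11* at 4.02 ± 0.16. These 3 held ranks 1, 2 and 3 on each of the 6 arrays. Behind them *Slc25a51* (3.98), *Slc25a20* (3.78), *Slc25a3* (3.77) and *Slc25a42* (3.36) were among a bright set, and a step of 0.69 separated *Slc25a42* from *Slc25a33* (2.67). Within that bright set the neighbours *Slc25a11* and *Slc25a51*, *Slc25a51* and *Slc25a20*, and *Slc25a20* and *Slc25a3* stood closer to each other than the sum of their SDs. Over the whole order this held for 33 of the 44 steps between neighbours, so that few neighbours were set apart beyond the spread between mice. The bright end thus held both ADP/ATP carriers, the phosphate carrier, the acylcarnitine carrier, the oxoglutarate carrier and carriers of NAD+ and coenzyme A. The dimmest were *Slc25a43* (-6.00), *Slc25a31* (-5.71), *Slc25a41* (-5.38), *Slc25a2* (-4.39) and *Slc25a13* (-4.25).

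Most carriers kept nearly the same place in KO mice. *Ucp3* went from rank 24 in WT to 15 in KO mice, *Ucp2* from 31 to 26, *Slc25a48* from 23 to 19, *Slc25a30* from 37 to 34, and *Slc25a1* from 12 to 18. Carriers that did not pass moved as far as *Slc25a30*, among them *Slc25a34* (20 to 23) and *Slc25a28* (16 to 13).

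**Figure D4:**
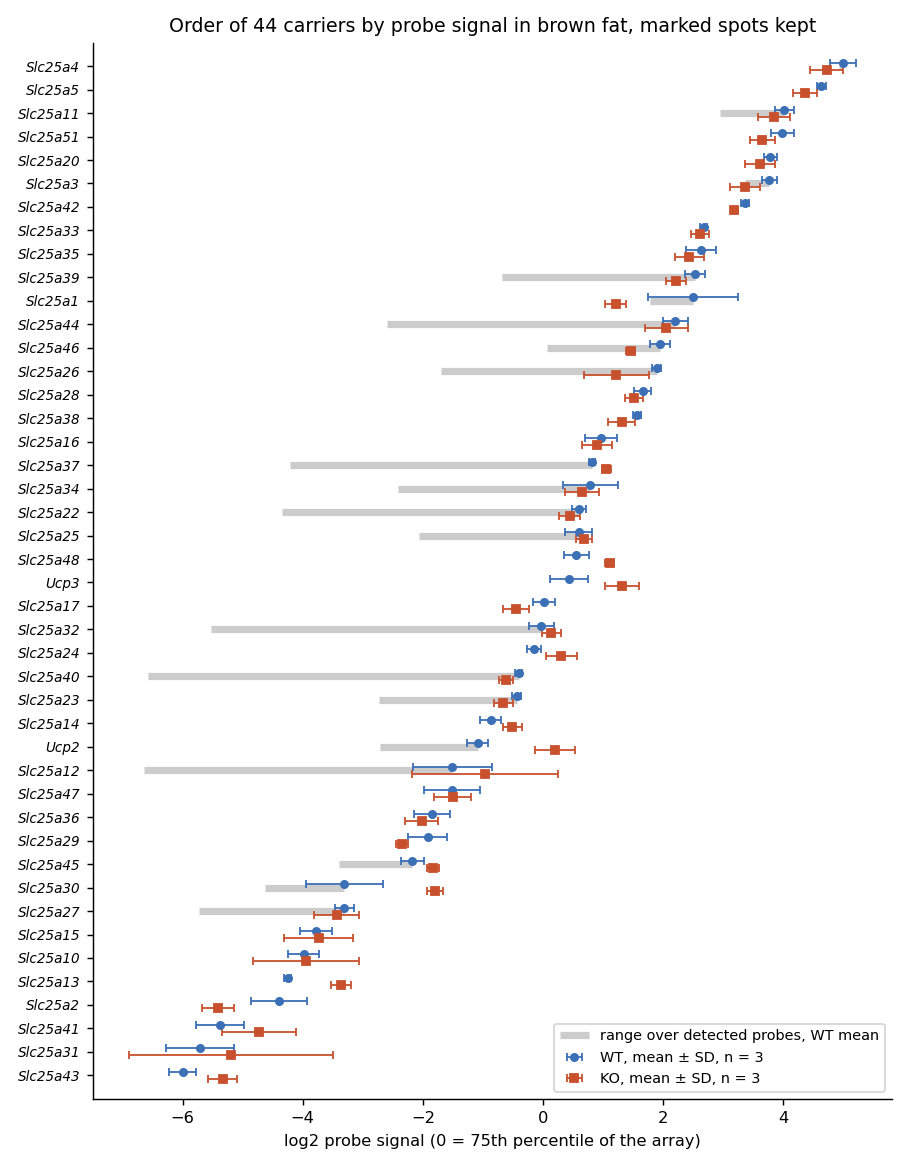
Log2 probe signal (0 is the 75th percentile of the array) of 44 of the 45 carriers in WT (blue) and KO (red) mice, as mean ± SD of 3 mice with marked spots kept, ordered by the WT mean. Grey bars span the WT means of all detected probes of a gene. *Slc25a4* (4.995) is brightest and *Slc25a43* (-6.00) dimmest in WT mice, and the grey bars are longer than most steps between neighbours.

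The bright carriers leaned one way in KO mice, and so did other bright genes. All 12 carriers with a mean signal over 2 across the 6 arrays had a KO mean below the WT mean, with a median difference of -0.23, beside 55.9% of all genes tested on these terms. Of the 3326 genes with a mean signal over 2, however, 87.9% lay below 0 as well, with a median of -0.26. When the arrays were quantile-normalized, 7 of these 12 carriers lay below 0 with a median of -0.02, beside 60.9% of the bright genes and a median of -0.05. The size of this lean thus changed with the scaling, in the carriers and in all genes of their brightness. The 3 that rose in the uncoupling protein branch kept their differences under quantile normalization, at 1.27 for *Ucp2*, 1.24 for *Ucp3* and 1.39 for *Slc25a30*, and *Slc25a1* differed by -1.14.

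Carriers reach the inner membrane by a route of their own, through the outer membrane translocase, the small chaperones of the intermembrane space and the TIM22 complex. Of 16 genes of that route, 14 were tested. Of these 2 fell and none rose, against 8.82% and 10% of all genes. A KO mean below the WT mean was found in 13 of the 14, beside 52.9% of all genes, with a median of -0.35. *Timm10b* fell by 0.61 ± 0.17 and *Timm13* by 0.55 ± 0.17. *Timm10b* belongs to the TIM22 complex and *Timm13* is a chaperone subunit of the intermembrane space. Neither passed the adjusted threshold. Most of these genes are bright. With marked spots kept, 15 of 16 lay below 0 with a median of -0.34. For all genes with a mean signal over 2 these values were 87.9% and -0.26. With quantile normalization as well, 15 of 16 lay below 0 with a median of -0.15, beside 60.9% and -0.05 for the bright genes. Under quantile normalization without the marked spots the median of the import genes was -0.14. Then 12 of 14 lay below 0, beside 8079 of 14711 genes.

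Other transporters of the mitochondrial membranes, 26 genes outside the member rule, gave 17 that could be tested. Of these 5 fell and 2 rose, against 8.82% and 10% of all genes, none past the adjusted threshold, with a median of -0.24. Without KO mouse 1, 2 fell, against 6.11% of all genes. With the slide row as a block 2 of the 16 tested fell and none rose, against 2.41% and 6.29% of all genes. The falls were in *Abcb10* (-0.51) and *Abcb6* (-0.43), ABC transporters tied to heme metabolism, in the sideroflexins *Sfxn1* (-0.37) and *Sfxn5* (-0.52), and in *Smdt1* (-0.55), a regulatory subunit of the calcium uniporter. *Mcub*, the inhibitory subunit of the same uniporter, rose by 0.80 ± 0.20, and *Sfxn3* rose by 0.42. Under quantile normalization 3 of the 17 fell and 2 rose, against 10.2% and 7.95% of all genes, and the median was -0.14. With marked spots kept all 26 were tested, and 8 fell and 2 rose, against 11.1% and 9.47% of all genes. Of the 26, 21 lay below 0, with a median of -0.33. With quantile normalization as well 5 fell and 2 rose, against 10.6% and 8.01% of all genes, with a median of -0.14. With normexp background correction 6 of the 17 fell and 2 rose, against 8.98% and 6.07% of all genes.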

How the data were processed

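BAT of 6 mice, 3 per group, was hybridized to 6 Agilent arrays. The authors deposited the intensity of each spot, background-subtracted by Agilent Feature Extraction (version 11.5.1.1 per the file headers, 10.7 in the submitters' processing notes) and not scaled between arrays, and a table of processed log2 values whose columns share 1 maximum. How the authors made that table is not given in the sources used here. Its differences can lie close to those under quantile normalization, with -1.14 for *Slc25a1* and -0.56 for *Slc25a26* in both. These alternatives are therefore not separate checks.

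Intensity was divided by the array's 75th percentile of non-control spots and taken as log2. Marked spots were left out. Probes well above background on at least 3 arrays, with at least 2 values per group, were matched to genes through RefSeq accessions (33767 of 56605 probes, 59.7%), and the brightest testable probe stood for a gene. Groups followed the labels. They were compared with limma 3.58.1 in R 4.3.3 (two-sided, Benjamini-Hochberg over 14711 genes), after the steps were tested on simulated data. The precision is that of 3 arrays per group. Beyond the separate mice, the labels name no batch.

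Full values were given for members with an unadjusted p under 0.05, for 10 carriers central to brown fat whatever they did, and for the 5 brightest and 5 dimmest tested members. Of other genes, *Ucp1* and the genes of the import and transporter lists with an unadjusted p under 0.05 were named. The members and lists were chosen with earlier results of these data known. In all, 20 alternatives were run, among them quantile normalization, normexp with an offset of 50, SAM and the methods' t-test, and leaving out each mouse. The values of 1 member are not reported here, though it stays in the counts.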

Additional observations from a re-analysis of the deposited data

How the results depend on the processing

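The 5 members that fell became 3 without a filter on dim probes, 3 with the mean of a gene's probes and 0 with the slide row as a block, and ranged from 3 to 5 when 1 mouse was left out. The calls of all genes moved too, from 1297 lower of 14711 to 933 of 22112, 1005 of 14711 and 298 of 12351 in the first 3 of these settings. With marked spots kept 7 members fell, beside 1794 of 16110 genes. The 7 that rose ranged from 5 to 8 over the same settings. *Ucp3* could not be fitted with the row as a block, in the authors' processed values, or without WT mouse 1, WT mouse 2, KO mouse 2 or KO mouse 3. Directions turned in these carriers: under quantile normalization *Slc25a10* (-0.17), *Slc25a11* (0.085), *Slc25a15* (-0.13), *Slc25a20* (0.040), *Slc25a42* (0.036) and *Slc25a47* (-0.078), the cause being the scaling itself; with marked spots also kept *Slc25a10* (-0.17), *Slc25a11* (0.059), *Slc25a15* (-0.13), *Slc25a20* (0.052), *Slc25a42* (0.049), *Slc25a44* (-0.016) and *Slc25a47* (-0.078); with marked spots kept alone *Slc25a33* (-0.066) and *Slc25a44* (-0.15, another probe); with normexp *Slc25a10* (-0.049), *Slc25a15* (-0.21), *Slc25a43* (-0.0024) and *Slc25a47* (-0.054); in the authors' values *Slc25a10* (-0.17), *Slc25a15* (-0.13) and *Slc25a47* (-0.074); with the mean of probes *Slc25a22* (0.030), *Slc25a34* (0.11) and *Slc25a40* (0.47); with the row as a block *Slc25a10* (-0.088), *Slc25a15* (-0.21), *Slc25a27* (0.0011), *Slc25a34* (0.21) and *Slc25a47* (-0.015); and with the muscle covariate *Slc25a10* (-0.089). With 1 mouse left out, directions turned in *Slc25a22* (-0.14 to 0.33), *Slc25a32* (-0.35 to 0.38), *Slc25a34* (-0.31 to 0.12), *Slc25a47* (-0.23 to 0.24), *Slc25a10* (-0.35 to 0.51), *Slc25a15* (-0.28 to 0.22), *Slc25a25* (-0.033 to 0.19), *Slc25a12* (-0.14 to 0.99) and *Slc25a31* (-0.14 to 1.48). In *Slc25a22* and *Slc25a32* the turn came with a change of probe. Without a mouse the brightest probe had too few unmarked values, and another probe stood for the gene. The cause of the other turns was not tested. No paired analysis was possible because the labels give the groups no shared replicate numbers. Carriers near background, *Slc25a43*, *Slc25a31*, *Slc25a41* and *Slc25a2*, are limited by signal.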
